A study of Mus musculus with 4 samples.

Results

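Levels of 36 transcription factor genes of the embryonic forebrain, chosen by name, were read in female mouse neural stem cells with Smchd1 deleted and in their controls. All 36 were found as rows of a table of 25965 genes. Smchd1 is a non-canonical SMC protein of chromatin, known for its part in X inactivation and in the repression of some imprinted and clustered genes. The factors were grouped by role into 5 dorsal forebrain factors, 7 proneural and intermediate progenitor factors, 11 ventral forebrain factors, 10 rostral or broadly expressed forebrain factors and 3 class III POU factors.

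The cells were cultured neural stem cell lines from E14.5 embryos of mixed C57BL/6, 129 and Castaneus (Cast) background. Smchd1 del/del cells had been transduced with a retrovirus (MSCV-Cre-puro) that carries Cre recombinase and puromycin resistance, were selected with puromycin, and were harvested 7 days after transduction. Smchd1 del/fl cells, the untransduced remainder of the same lines, kept 1 conditional allele beside 1 deleted allele. All cells carried a maternal 129 X chromosome with an Xist deltaA allele and a paternal Cast X chromosome with wild-type Xist. Smchd1 loss therefore cannot be told apart from transduction, Cre and selection. The data held 1 del/del and 1 del/fl library of each of 2 lines, called A and B here, with 33572648 and 31823877 counts in del/del lines A and B, and 29873400 and 34018500 counts in del/fl lines A and B. Each genotype has n = 2 here, and further lines of the study were not analysed here. Smchd1 itself had 23.5 and 26.6 CPM (counts scaled to a common library size) in del/del cells, against 93.6 and 102 CPM in del/fl cells. The fit of edgeR gave it a log2 fold change of −1.96 with an SE of 0.07 (adjusted p = 0.0194, or 0.341 with line left out of the fit). As markers of neural stem cells, Nes had 901 to 1663 CPM and Sox2 254 to 327 CPM over the 4 libraries.

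In the embryonic forebrain, gradients of such factors divide the progenitor zone into a dorsal part, which gives rise to glutamatergic neurons of the cortex, and a ventral part, which gives rise to GABAergic neurons. Pax6 and Gsx2 are known to oppose each other at the border between them. Proneural factors of the basic helix-loop-helix family then drive progenitors towards neurons, and neural stem cells in culture are known to lose part of the regional code of the tissue they came from.

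The cells read a restricted part of this code. Per kilobase of annotated exon, the factor with the highest level was Pou3f3 (chromosome 1, 42697146 to 42700207, mm10), a POU homeodomain factor of cortical progenitors, at 65.0 to 90.2 RPKM (CPM divided by exon length in kilobases) over the 4 libraries. The ranges of all other members lay below it. Next came Pou3f4 (chromosome X, 110814390 to 110815571) at 14.2 to 23.5 RPKM, Lhx2 (chromosome 2, 38339281 to 38369733) at 13.5 to 17.7 RPKM, Emx2 (chromosome 19) at 12.6 to 15.9 RPKM, Zic1 (chromosome 9) at 10.9 to 14.6 RPKM, Nr2f1 (chromosome 13) at 9.10 to 16.6 RPKM and Meis2 (chromosome 2) at 6.93 to 14.9 RPKM. Each of these overlapped in range with its neighbour in that order, so their order is not resolved. The counts of Pou3f3 and of Pou3f4 were divided by exon length within their rows of the table, at 3062 and 1182 bases. The row of Pou3f3 also lies entirely within that of Gm20646 on the same strand, which had 82 to 114 counts per library against 6664 to 9416 for Pou3f3. On CPM, without length, Pou3f3 still led, at 199 to 276 CPM, and Meis2 came second at 83.4 to 179 CPM.

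**Figure D1:**
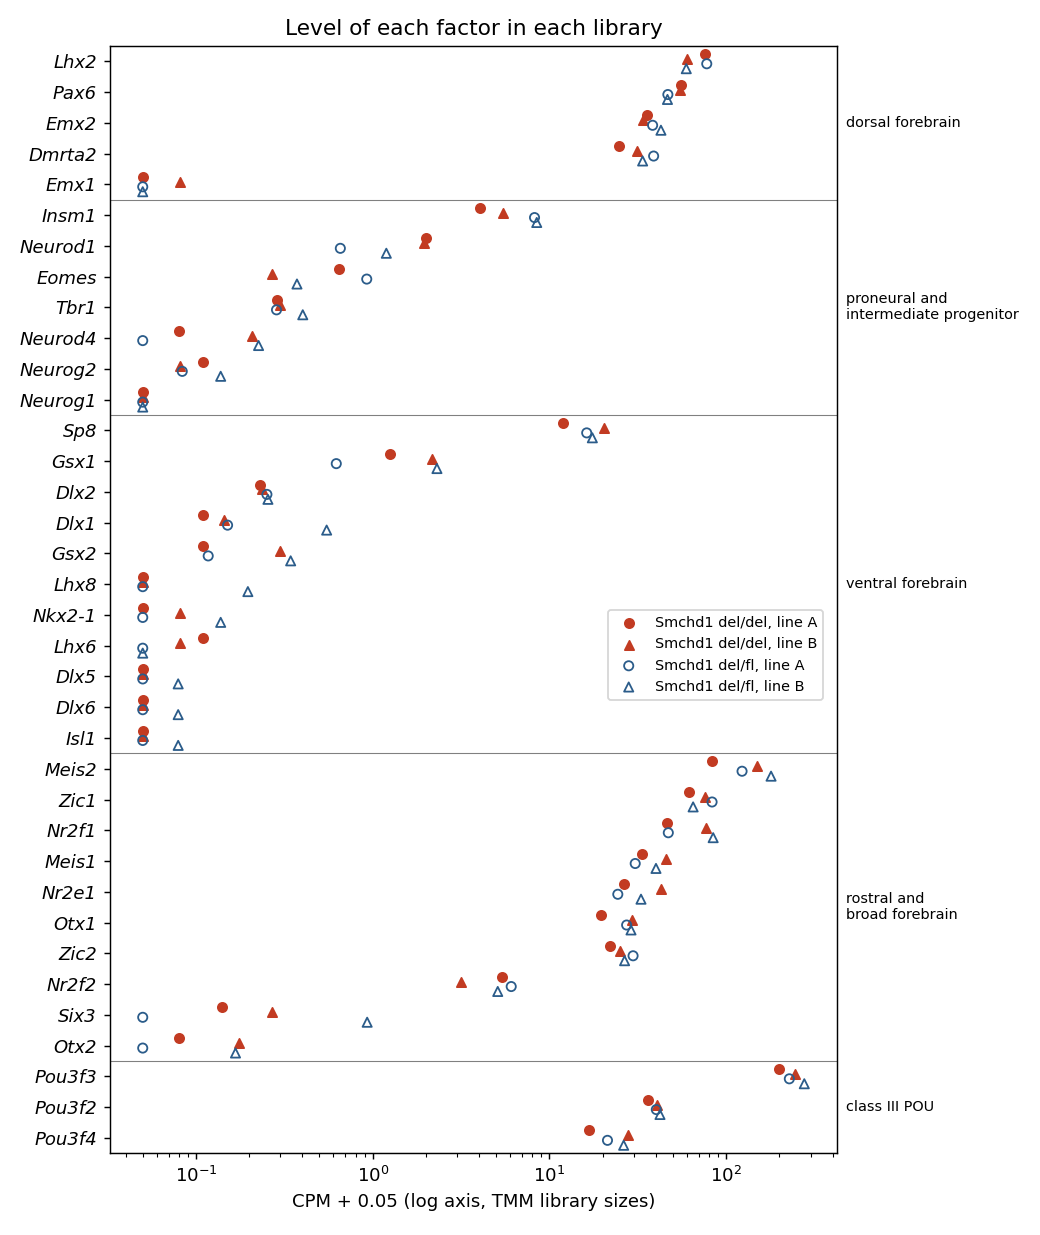
Level of each of the 36 factors in each library, by role, as CPM plus 0.05 on a log axis. Filled red marks are Smchd1 del/del and open blue marks del/fl libraries, with circles for line A and triangles for line B. Dorsal, rostral or broad, and POU factors mostly lie above 10 CPM, while most of the listed proneural and ventral factors lie near 0.

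Dorsal factors were read with 1 exception. Lhx2, a LIM homeodomain factor that gives cortical progenitors their identity, had 75.3 and 59.9 CPM in del/del lines A and B, against 77.5 and 59.4 CPM in del/fl lines A and B. Pax6 (chromosome 2, 105668896 to 105703160), the paired-box factor of dorsal progenitors, had 55.3 and 54.9 CPM in del/del cells, against 46.7 and 46.5 CPM in del/fl cells. Both del/del libraries thus lay above both del/fl libraries for Pax6, while for Lhx2 the lines differed and the genotypes overlapped. The row of Pax6 shares 5841 bases with that of Elp4 on the opposite strand, which had 1711 and 1545 counts in del/del and 1017 and 1230 counts in del/fl cells. Emx2, which patterns the caudal and medial cortex, had 35.4 and 33.9 CPM in del/del cells and 38.3 and 42.7 CPM in del/fl cells. Dmrta2, which acts in the medial wall of the cortex, had 24.8 and 31.2 CPM in del/del cells and 38.8 and 33.6 CPM in del/fl cells. For both, the del/del libraries lay below the del/fl libraries. No dorsal factor was called between genotypes in the fit below, and the share of all genes that separate so is not reported here. Emx1, a marker of the cortical lineage in vivo, had 1 count in del/del line B and none elsewhere.

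The 7 listed proneural and intermediate progenitor factors were the lowest role. They summed to 6.84 and 7.94 CPM in del/del cells and 9.93 and 10.5 CPM in del/fl cells. Neurog1 had no count in any library, which allows up to 3 counts, or 0.0882 to 0.100 CPM. Neurog2, the main proneural factor of the cortex, had 2 and 1 counts in del/del and 1 and 3 counts in del/fl cells. Neurod4, another proneural factor, had 1 and 5 counts in del/del and 0 and 6 counts in del/fl cells. Tbr1, a factor of early cortical neurons, had 8 and 8 counts in del/del and 7 and 12 counts in del/fl cells. Eomes, which marks intermediate progenitors, had 20 and 7 counts in del/del and 26 and 11 counts in del/fl cells, higher in line A of either genotype. Only Insm1, Neurod1 and Eomes of the 7 passed the filter on low counts.

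Insm1 (chromosome 2, 146221921 to 146225016), a zinc finger factor that promotes the formation of intermediate progenitors, had 3.97 and 5.38 CPM in del/del cells, against 8.18 and 8.42 CPM in del/fl cells. Neurod1, a bHLH factor of neuronal differentiation, had 1.94 and 1.91 CPM in del/del cells, against 0.606 and 1.14 CPM in del/fl cells. The genotypes did not overlap for either gene, but neither was called in the main fit below. How many of all genes separate in this way is not reported here. The row of Neurod1 lies entirely within that of Cerkl on the same strand, which had 480 and 267 counts in del/del and 469 and 263 counts in del/fl cells, and reads of Cerkl cannot be told apart from its own 18 to 65 counts.

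Ventral factors were nearly as low, at 13.4 and 22.98 CPM summed over 11 genes in del/del cells and 17.1 and 21.0 CPM in del/fl cells. Of the 11, only Sp8 and Gsx1 passed the filter. Sp8, a zinc finger factor of the dorsal part of the lateral ganglionic eminence, had 11.9 and 20.3 CPM in del/del cells, against 16.2 and 17.4 CPM in del/fl cells. Gsx1, a homeobox factor of the ganglionic eminences, had 1.20 and 2.13 CPM in del/del cells, against 0.572 and 2.26 CPM in del/fl cells. In both genes the genotypes overlapped and line B was the higher line. Nkx2-1, the factor that specifies the medial ganglionic eminence, had 0 and 1 counts in del/del and 0 and 3 counts in del/fl cells. Its known downstream factors were as low, Lhx6 at 2 and 1 counts in del/del cells and none in del/fl cells, and Lhx8 at 5 counts in del/fl line B alone. Dlx5, Dlx6 and Isl1 had 1 count each, all in del/fl line B. Dlx2 had 6 and 6 counts in del/del and 6 and 7 counts in del/fl cells. Dlx1 had 2 and 3 counts in del/del cells, against 3 and 17 in del/fl cells, and its whole row is covered by its antisense gene Dlx1as, with 33 and 34 counts in del/del and 30 and 52 counts in del/fl cells. Gsx2, which sets ventral identity, had 2 and 8 counts in del/del and 2 and 10 counts in del/fl cells.

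In all, 16 of the 36 members did not pass the filter, and 13 of these had at most 10 counts in every library. Together they held 27 and 45 counts in del/del lines A and B, and 19 and 100 counts in del/fl lines A and B. Of the 15 with a count, 12 (80%) had their highest CPM in del/fl line B. Among all 3855 genes that did not pass the filter but had a count, 16.8% had their highest CPM in that library. Six3, a factor of the rostral forebrain and eye, contributed most, with 3 and 7 counts in del/del cells and 0 and 30 in del/fl cells. Its antisense gene Six3os1, which shares 5804 bases with its row, was counted in line B alone, with 0 and 57 counts in del/del and 0 and 72 counts in del/fl cells. Reads of overlapping genes on opposite strands cannot be told apart here, because the use of strand is not given in the sources used here.

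Rostral and broad factors had the highest summed level of the 5 roles, at 298 and 447 CPM in del/del cells and 371 and 463 CPM in del/fl cells. Meis2 (chromosome 2, 115863064 to 116065839), a TALE homeodomain factor, had 83.4 and 149 CPM in del/del lines A and B, against 123 and 179 CPM in del/fl lines A and B. Its relative Meis1 (chromosome 11, 18880430 to 19018958) had 33.5 and 45.5 CPM in del/del cells, against 30.5 and 40.0 CPM in del/fl cells. Nr2f1 (chromosome 13, 78188973 to 78199757), also called COUP-TFI, a nuclear receptor that patterns the caudal cortex, had 46.4 and 76.8 CPM in del/del cells, against 47.0 and 84.3 CPM in del/fl cells. Nr2e1 (chromosome 10, 42561963 to 42583632), also called Tlx, a nuclear receptor needed for self-renewal of neural stem cells, had 26.3 and 42.6 CPM in del/del cells, against 24.3 and 32.9 CPM in del/fl cells. In all of these, line A lay below line B in both genotypes, and the genotypes overlapped across lines. That overlap does not bear on differences within a line. Within each line, del/del cells were lower for Meis2 (log2 fold change −0.56 in line A, −0.27 in line B) and Nr2f1 (−0.02 and −0.13). They were higher for Meis1 (0.14 and 0.18) and Nr2e1 (0.12 and 0.37). None of these genes was called between genotypes in the main fit below. Nr2f1 shares 1741 bases with A830082K12Rik on the opposite strand, which had 414 and 453 counts in del/del and 261 and 458 counts in del/fl cells, against 1395 to 2872 for Nr2f1.

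The paralogue Nr2f2 (COUP-TFII), a nuclear receptor of the caudal ganglionic eminence, was much lower, at 5.32 and 3.10 CPM in del/del cells and 6.03 and 5.05 CPM in del/fl cells. Zic1 and Zic2, zinc finger factors of the dorsal midline, and Otx1, a homeodomain factor of the deep cortical layers, lay between 19.5 and 83.1 CPM. Zic1 shares 3398 bases with Zic4 on the opposite strand (124 to 155 counts). Otx2, needed for the forebrain to form, had at most 4 counts in any library. The POU factors Pou3f3, Pou3f2 and Pou3f4 had 199, 35.9 and 16.7 CPM in del/del line A, 244, 40.4 and 27.8 CPM in del/del line B, 227, 40.2 and 21.2 CPM in del/fl line A, and 276, 42.1 and 26.2 CPM in del/fl line B. All of them were lower in line A than in line B of the same genotype.

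Whether Smchd1 deletion changed these factors was tested with edgeR's quasi-likelihood method over all genes, with line as a term in the fit because both genotypes came from the same lines. No factor was called: 0 of the 20 tested members rose and 0 fell (Benjamini-Hochberg adjusted p between 0.0665 and 0.906). Over all 14860 genes tested, 5.60% were called, 3.71% higher and 1.89% lower in del/del cells. At an unadjusted p under 0.05, 2 of the 20 members were higher and 3 lower, against 17.2% higher and 13.6% lower over all genes tested. The median log2 fold change was −0.12 over the 20 members and 0.01 over all genes tested. Without line in the fit, 0 genes of the 14860 (0%) were called, and the members' adjusted p lay between 0.406 and 0.982. An adjusted p above the threshold does not show that a factor was equal in both genotypes, and the standard errors on the log2 scale ran from 0.07 for Pou3f3 to 0.38 for Eomes.

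Insm1 and Meis2 came closest to the threshold. The log2 fold change of Insm1 was −0.84 (SE 0.19, edgeR adjusted p = 0.0665), with −1.03 in line A and −0.64 in line B. For Meis2 it was −0.41 (SE 0.09, edgeR adjusted p = 0.0686), with −0.56 in line A and −0.27 in line B. In fits that left out 1 library, without line as a term, Meis2 ran from −0.876 to −0.023 and Insm1 from −1.08 to −0.63. These calls turned on the settings: with no filter on low counts edgeR called both lower (adjusted p = 0.0372 for Insm1 and 0.0394 for Meis2), and DESeq2 called Meis2 lower (adjusted p = 0.0242) but not Insm1 (adjusted p = 0.109). The next were Pax6 at 0.24 (SE 0.07, edgeR adjusted p = 0.0980), equal in both lines at 0.24, and Neurod1 at 1.16 (SE 0.34, edgeR adjusted p = 0.103), with 1.59 in line A and 0.71 in line B. Without 1 library, Neurod1 ran from 0.74 to 1.66.

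**Figure D2:**
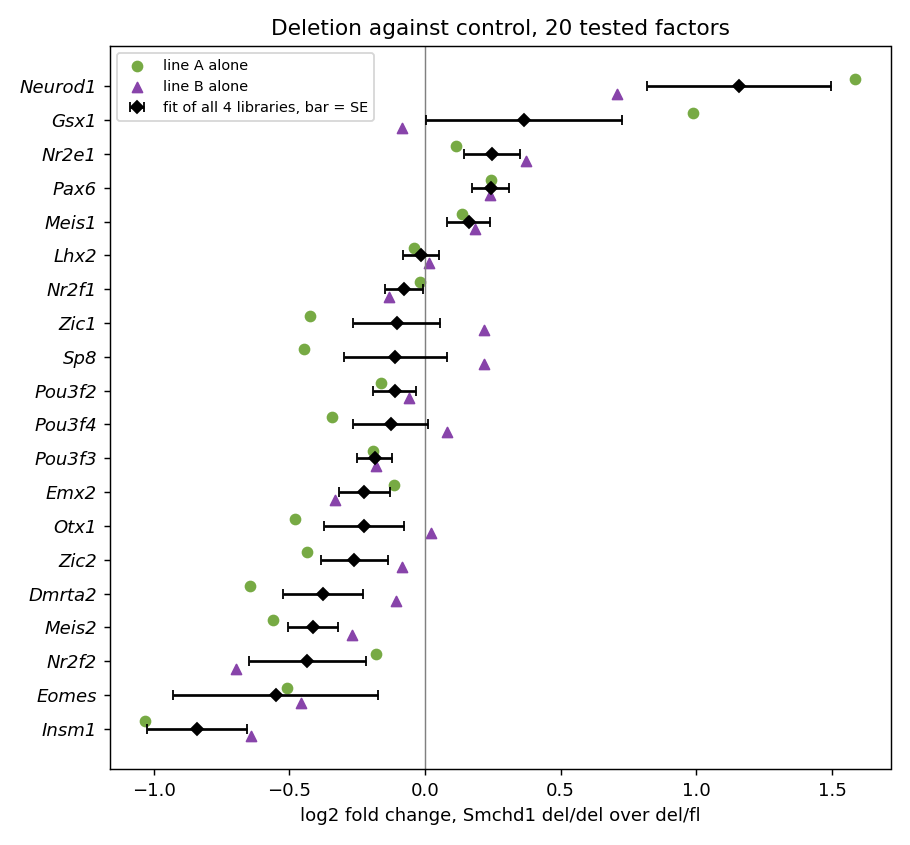
Log2 fold change of Smchd1 del/del over del/fl cells for the 20 tested factors. Black diamonds are the fit of all 4 libraries with their SE, green circles line A alone and purple triangles line B alone. Most values lie between −0.5 and 0.5, with Neurod1 and Insm1 at the ends.

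By direction, 10 of the 20 tested members were lower in del/del cells of both lines, against 36.4% of all genes tested, 4 were higher in both lines, against 38.0%, and 6 went opposite ways in the lines. The 10 were Emx2, Dmrta2, Eomes, Insm1, Meis2, Zic2, Nr2f1, Nr2f2, Pou3f2 and Pou3f3. Their fitted values ran from −0.08 for Nr2f1 to −0.84 for Insm1. Those higher in both lines were Pax6, Neurod1, Meis1 at 0.16 (SE 0.08) and Nr2e1 at 0.25 (SE 0.10). By role, 0 of 4 dorsal, 0 of 3 proneural, 0 of 2 ventral, 0 of 8 rostral or broad and 0 of 3 POU factors were called. Their median log2 fold changes were −0.12, −0.55, 0.13, −0.17 and −0.13 in that order.

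None of 13 tested genes known as targets of proneural factors was called. Those with the highest counts were Btg2, an antiproliferative gene, at 0.32 (edgeR adjusted p = 0.0579), and Hes6, a Hes family factor, at −0.29 (edgeR adjusted p = 0.0930). Of 4 tested midbrain, hindbrain and cord factors 0 were called (Gbx2 at −0.42 and Irx3 at 0.79).

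Markers of other cells moved with genotype as well. Astrocyte markers rose at 5 of 8 tested genes, and their summed level was 993 and 911 CPM in del/del cells and 568 and 573 CPM in del/fl cells. S100b rose by 2.64, Aqp4 by 2.01 and Gfap by 1.38, with Gja1 and Aldh1l1 the others (median 1.01 over the 8 tested). Of 11 tested general neuron markers, Elavl3 rose by 0.64 and Syt1 fell by 1.47. Of 9 neural stem cell markers, Slc1a3, which astrocytes also express, rose by 0.96. No gene was called among 2 glutamate neuron genes (Bhlhe22 at 0.16, Slc17a7 at −0.10), 6 oligodendrocyte markers (Cnp at 0.21, Cspg4 at 0.64), 2 microglia markers (Csf1r at −0.11, P2ry12 at 0.52) or 1 mesenchyme marker (Col1a1 at 0.04). The part of these shifts in the values of the 36 factors was not tested. In bulk RNA, fewer cells of a type and less RNA per cell cannot be told apart.

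Several factors differed between the lines. In the same fit, 5 of the 20 tested members differed between line A and line B, 1 higher and 4 lower in line A. Over all genes tested, 10.1% were called, 6.63% higher and 3.51% lower in line A. The median log2 difference was −0.26 over the members and −0.01 over all genes tested. The libraries of a line are parts of 1 established line, with 1 library per genotype. These p-values therefore rest on how far the line difference varies between genotypes, with information shared over genes. They do not measure the spread among lines.

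Nr2f1 had the largest called difference. Its level was 46.4 and 47.0 CPM in line A (del/del and del/fl), against 76.8 and 84.3 CPM in line B, a log2 fold change of −0.79 (SE 0.07, edgeR adjusted p = 0.0121). Both libraries of line A lay below both of line B. Meis2 was lower in line A by a log2 fold change of −0.69 (SE 0.09, edgeR adjusted p = 0.0229), Nr2e1 by −0.57 (SE 0.10, edgeR adjusted p = 0.0394) and Meis1 by −0.41 (SE 0.08, edgeR adjusted p = 0.0430). Lhx2 alone was higher in line A, at 75.3 and 77.5 CPM against 59.9 and 59.4 CPM in line B (log2 fold change 0.36, SE 0.07, edgeR adjusted p = 0.0410). Each of the 5 had the same sign in del/del and in del/fl cells. Of the 20 members, 11 were lower and 4 higher in line A in both genotypes, against 36.9% and 36% of all genes tested. Rows of genes that overlap Lhx2 and Meis1 on the opposite strand had at most 5 counts.

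**Figure D3:**
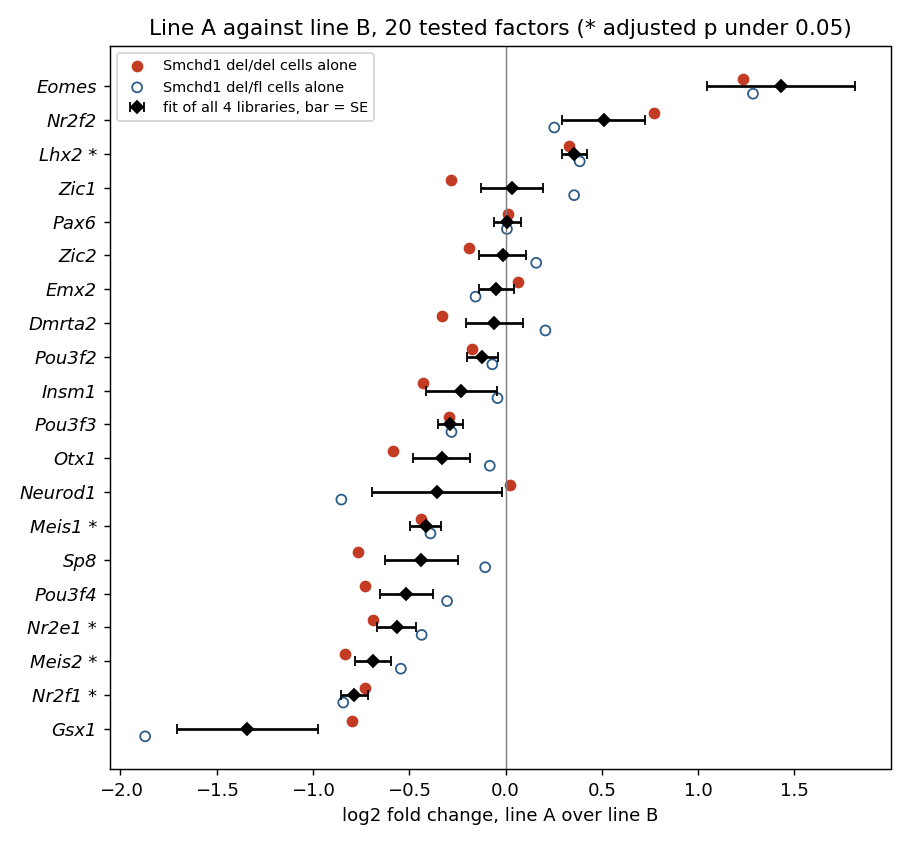
Log2 fold change of line A over line B for the 20 tested factors. Black diamonds are the fit of all 4 libraries with their SE, red filled circles del/del cells alone and blue open circles del/fl cells alone, and an asterisk marks an adjusted p under 0.05. Nr2f1, Meis2, Nr2e1 and Meis1 are lower in line A and Lhx2 is higher.

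Larger differences with larger errors were not called. Eomes was at 1.43 (SE 0.38, edgeR adjusted p = 0.0855) and Gsx1 at −1.34 (SE 0.37, edgeR adjusted p = 0.0880). Pou3f3 (−0.29, edgeR adjusted p = 0.0603) and Pou3f4 (−0.52, edgeR adjusted p = 0.0834) were lower in line A in both genotypes but not called. With no filter on low counts edgeR also called Pou3f3 lower (log2 fold change −0.30, adjusted p = 0.0461), which makes 5 members lower. Without genotype in the fit, 8 genes of all tested (0.0538%; 0.0336% higher and 0.0202% lower in line A) and 0 members were called, with an adjusted p of 0.157 for Nr2f1 and 0.265 for Lhx2. DESeq2 with both terms called Nr2f1, Meis2 and Nr2e1, but not Meis1 (adjusted p = 0.104) or Lhx2 (adjusted p = 0.109). No member was called in any of the 4 fits that left out 1 library, each of them without genotype as a term. Without the del/del library of line A, Meis2 was at −0.41, and over those fits it ran from −0.98 to −0.41.

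Other regional genes differed between the lines as well. Of the 4 tested midbrain, hindbrain and cord factors, 3 were higher in line A, Irx3 by 2.76, Irx5 by 2.31 and Gbx2 by 1.57. Their whole list summed to 37.2 and 35.5 CPM in line A (del/del and del/fl), against 14.0 and 14.7 CPM in line B, far below the 761 and 888 CPM of the 36 factors in line A and their 970 and 1021 CPM in line B. Of the 32 other forebrain factors tested, 5 were higher in line A (Ebf1 by 1.29, Pou3f1 by 1.19, Tcf7l2 by 0.72, Nkx2-2 by 0.54 and Prox1 by 0.39). Of the 13 proneural targets, Gadd45g and Rnd2 were higher in line A (0.95 and 0.43), and Myt1 and the Notch ligand gene Dll3 lower (−1.22 and −0.72).

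Lineage markers also separated the lines. Gad1, the GABA synthesis gene, was lower in line A (log2 fold change −3.54). It had 8.66 and 2.15 CPM in line A (del/del and del/fl), against 75.7 and 39.1 CPM in line B. Calb2 and Htr3a were higher in line A (3.76 and 2.31). Calb2 had few counts, 65 and 23 in line A (del/del and del/fl) against 1 and 5 in line B (SE 0.73). Oligodendrocyte lineage genes Sox10 and Pdgfra were lower in line A (both −2.37), and Pdgfra was called also without genotype in the fit. Among neuron markers Rbfox3, Stmn2 and Syt1 were higher and Dcx and Snap25 lower in line A. Bhlhe22 (1.78) of the glutamate list and S100b (1.83) and Aldh1l1 (1.22) of the astrocyte list were higher, and Fabp7 (−0.54) of the stem cell list was lower. No microglia or mesenchyme marker was called. How far these shifts account for the values of the 36 factors was not tested.

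The promoters of 3 of the factors that differed between lines are printed to show the sequence at their start sites (RefSeq, GRCm38.p6, from 250 bases before to 50 after the start, 5′ to 3′ on the strand of the gene). They are Nr2f1 (largest called difference, chr13:78198824-78199123, minus strand), Nr2e1 (chr10:42583541-42583840, minus strand) and Lhx2 (higher in line A, chr2:38339031-38339330, plus strand). Capitals mark matches, on either strand, to the letters searched. These windows were chosen after the values were seen.
Nr2f1: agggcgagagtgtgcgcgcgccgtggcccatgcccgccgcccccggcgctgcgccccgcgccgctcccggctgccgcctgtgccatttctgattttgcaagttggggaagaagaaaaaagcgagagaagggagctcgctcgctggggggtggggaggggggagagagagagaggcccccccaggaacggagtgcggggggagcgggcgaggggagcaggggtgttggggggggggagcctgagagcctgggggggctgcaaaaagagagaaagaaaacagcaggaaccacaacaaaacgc
Nr2e1: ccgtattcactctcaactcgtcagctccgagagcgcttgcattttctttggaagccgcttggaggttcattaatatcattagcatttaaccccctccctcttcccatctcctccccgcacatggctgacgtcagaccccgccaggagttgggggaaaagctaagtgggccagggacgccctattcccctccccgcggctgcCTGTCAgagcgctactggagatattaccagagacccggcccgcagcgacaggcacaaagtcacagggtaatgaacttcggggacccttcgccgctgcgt
Lhx2: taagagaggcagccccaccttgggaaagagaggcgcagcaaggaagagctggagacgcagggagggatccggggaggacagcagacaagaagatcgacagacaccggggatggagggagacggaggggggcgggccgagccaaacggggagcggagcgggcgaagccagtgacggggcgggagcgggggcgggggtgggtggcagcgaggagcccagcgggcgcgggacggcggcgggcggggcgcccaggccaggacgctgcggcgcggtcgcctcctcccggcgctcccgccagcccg

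The letters searched were TGACAG (MEIS factors), AGGTCA (a nuclear receptor half-site), TAATTA (homeodomain factors) and ATGCAAAT (the POU octamer). TGACAG was found once, as its reverse complement CTGTCA, at position 202 of the Nr2e1 window, and none of the 4 motifs was found in the windows of Nr2f1, Lhx2, Meis1 or Meis2. Over all 32851 promoters of the same length, 19.2% held TGACAG, 16.3% AGGTCA, 5.29% TAATTA and 1.74% ATGCAAAT. Promoters were given for 31 of the 36 members, and of their 42 promoters 7 held TGACAG (16.7%), 4 AGGTCA (9.52%), 6 TAATTA (14.3%) and 1 ATGCAAAT (2.38%). A match is a run of letters, not a bound site. The RefSeq start of Nr2f1 lay 884 bases from the start of its row and that of Nr2e1 42 bases, and that of Lhx2 was the same base. GC content was 68.0%, 58.0% and 74.7% for Nr2f1, Nr2e1 and Lhx2, against a median of 52.7% over all promoters.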

How the data were processed

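Gene expression was measured by RNA sequencing in 4 libraries. The table deposited by the authors holds whole-number counts, not normalised, for each gene and library. The submitters' processing notes name the build mm10 and the tools edgeR, bcl2fastq and TopHat2 2.0.12. How reads were counted, and whether by strand, is not given in the sources used here. Columns are named by group and line number, not by the replicate number of a title, so they were matched to groups, and the lines are written as A (lower number) and B. For reads split by parental genome, 8 more columns were not used, since the names match more columns to a group than it has samples.

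All genes were fitted with edgeR 4.0.16 in R 4.3.3 (quasi-likelihood, TMM, filterByExpr, genotype and line as terms, Benjamini-Hochberg adjusted p under 0.05). SE is the log2 fold change divided by the root of F. DESeq2 1.42.0 was an alternative, beside other filters, other size factors, fits without line and fits that leave out 1 library. Per the labels, each line was split between the genotypes, which pairs libraries of 1 line number, and their deviations from the group means correlated at r = 0.716 across genes, which are not independent. CPM uses TMM library sizes; RPKM divides it by GENCODE M21 exon length within the row. Log2 values of single lines use a prior count of 2. The fit was also run on simulated counts in which an effect of genotype did not vary between lines. That run, whose outcome is not reported here, cannot show how the fit handles such variation. All members are reported. Of other lists, called genes (up to 6 of the largest) or else the 2 with the highest counts are named. Olig1 and Olig2 were added for their levels, at 1578 to 1866 CPM and 726 to 935 CPM over the 4 libraries. The members and lists were chosen with earlier results of these data known. Some genes of the other lists are not reported here.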

Additional observations from a re-analysis of the deposited data

Results flagged for a closer look

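For 6 of the 20 tested factors, del/del cells lay on opposite sides of del/fl cells in the lines. The differences in log2 fold change (line A minus line B) were 1.07 for Gsx1 (0.99 in line A, −0.09 in line B), −0.66 for Sp8 (−0.45 and 0.22), −0.64 for Zic1 (−0.42 and 0.22), −0.50 for Otx1 (−0.48 and 0.02), −0.42 for Pou3f4 (−0.34 and 0.08) and −0.055 for Lhx2 (−0.04 and 0.01). With 1 library per genotype and line the difference between lines could not be tested.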

How the results depend on the processing

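The calls depend on the fit. The fit with line as a replicate block is printed above. For del/del against del/fl it called 551 genes higher and 281 lower. With no replicate block it called 0 and 0, as did each fit that left out 1 library (0 to 0, all without the block). With no filter on low counts the counts were 1131 and 671, with at least 1 CPM in 2 libraries 871 and 455, and with DESeq2 756 and 438. Of the factors, 2 were lower with no filter and 1 with DESeq2. For line A against line B, 985 genes were higher and 521 lower. With no replicate block these were 5 and 3, and without 1 library 0 to 157 higher and 0 to 19 lower. Without a filter 799 were lower. Of the factors 1 was higher and 4 were lower; with no replicate block 0 and 0, without 1 library 0 and 0, and with DESeq2 0 were higher. Other size factors kept every factor on its side of the threshold.

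The sign of some values turned when 1 library was left out, in fits without the block. Against del/fl, the log2 fold change ran from −0.20 to 0.18 for Lhx2, −1.43 to 0.33 for Eomes, −0.45 to 1.53 for Gsx1, −0.52 to 0.27 for Sp8, −0.54 to 0.061 for Otx1, −0.091 to 0.37 for Meis1, −0.28 to 0.077 for Zic1, −0.52 to 0.39 for Nr2f1, −0.14 to 0.57 for Nr2e1 and −0.52 to 0.22 for Pou3f4. Between lines it ran from −0.11 to 0.12 for Pax6, −0.22 to 0.12 for Emx2, −0.39 to 0.26 for Dmrta2, −1.32 to 0.34 for Neurod1, −0.80 to 0.25 for Insm1, −0.19 to 0.25 for Zic1 and −0.24 to 0.20 for Zic2. Pax6 was at −0.0024 between lines with no filter. None of these had been called, and the cause was not tested. The planned minimum of allele-assigned counts was not run.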
